A study of Homo sapiens with 29 samples.

Results

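The regions described here are stretches of open chromatin that kept a peak in the human prostate cancer cell line 22Rv1 with and without WX-02-23, but whose highest point, the summit, sat elsewhere after treatment. Peaks of all 29 deposited lists were merged into 166696 regions, and 63228 of them had a peak in each of the 3 parental WX-02-23 and 3 parental DMSO libraries. In 673 of these shared regions the summits of all 3 WX-02-23 libraries lay at least 50 bp to one side of all 3 DMSO summits, and these 673 are the members. The members were chosen by the summit positions of those 6 libraries, so that separation is a description and carries no test. The 23 other libraries took no part in the choice.

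The study profiled open chromatin by ATAC-seq, which cuts accessible DNA with a transposase, in parental 22Rv1 cells and in engineered 22Rv1 cells. Parental cells received DMSO (0.1%), the stereoprobe WX-02-23 at 20 µM, the stereoprobe WX-02-43 at 20 µM, PladB at 10 nM or PladB at 100 nM for 3 h, in 3 libraries each. Every engineered library came from cells that overexpress Y36C-PHF5A and carry a doxycycline-inducible FOXA1, either the WT form or the C258A form, in which the cysteine at that position is replaced by alanine. With doxycycline (Dox), each of the engineered lines received DMSO, PladB at 100 nM or WX-02-23 at 20 µM. DMSO was also given without Dox to the WT-FOXA1 cells. All engineered groups had 2 libraries. No label names a deletion of the cells' own FOXA1, so the engineered cells may still contain it, and the labels do not say whether a line was 1 clone. Parental libraries differ from the engineered libraries with Dox in genotype and in Dox together, and from the WT-FOXA1 libraries without Dox in genotype. Comparisons were made within a line. The labels do not say that replicates came from separate cultures, so the p-values measure the spread between these libraries, which may be technical.

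FOXA1 is a forkhead transcription factor of prostate epithelium and is called a pioneer factor because it can bind its site on nucleosomal DNA and help to open it. The cysteine that C258A removes lies at the forkhead domain and is a residue that WX-02-23 is known to engage. Which other proteins WX-02-23 may engage was not examined here. PladB is a splicing inhibitor that acts on the SF3B1 complex, of which PHF5A is a subunit, and the Y36C change in PHF5A is known to lower the response to such inhibitors. In a peak from ATAC-seq, the summit is the base with the most overlapping fragments. It moves when the most accessible DNA moves inside a region, or when 1 of several neighbouring open sites overtakes another in height. The build of these files is hg19, and DNA sequence, motifs and nearby genes at the members were not analysed here.

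The lists held 62832 to 98193 peaks, and the mean background read from the fold steps was 0.546 to 1.502 reads per base, a relative measure of depth. The lowest numbers of peaks were in WT-FOXA1 cells, with a mean of 65324 ± 3524 (SD, n = 2) under WX-02-23 and 68505 ± 1852 (n = 2) without Dox, against 86575 ± 2214 (n = 2) under DMSO with Dox. No pair of libraries had more than 4.2% of summits at the same base, so none looked like a library deposited more than once. Summits were not precise to the base. Within each of the 12 groups, the median distance between the summits of 2 replicates was 26 to 31 bp over the regions that the group shared, and 30.6% to 35.0% of such pairs differed by at least 50 bp. Over members alone, that median was 47 to 57 bp in the groups that took no part in the choice. There 48.1% to 54.7% of the pairs differed by at least 50 bp. In the parental DMSO and WX-02-23 groups, which chose the members, the median was 19 bp.

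The members were few and wide. They made up 1.06% of the shared regions, which is the share called by the rule itself, and 352 moved toward the higher coordinate and 321 toward the lower. A single peak per library was present in 383 members, out of 47748 shared regions of that kind (0.802%). In the other 290 members at least 1 of the 6 libraries had more than 1 peak, out of 15480 such regions (1.87%). The median member spanned 760 bp, against 617 bp for the 62161 shared regions that were not members and whose mean summits were unequal. Single-peak members had a median width of 627 bp against 540 bp, and multi-peak members 958 bp against 908 bp.

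The share of members rose with the width of the region, from 0.492% in the narrowest quartile of the shared regions (186 to 454 bp) through 0.825% and 1.28% to 1.67% in the widest (860 to 2801 bp). WX-02-43 gave 0.448%, 0.792%, 0.814% and 1.10% in quartiles of the same width by the same rule against the same DMSO libraries. By the authors' −log10 p, ranked within each list, the median member stood at percentile 59.4 and the median other region at 64.4. The share of members was 1.23%, 1.27% and 1.19% from percentile 0 to 25, 25 to 50 and 50 to 75 of that ranking and 0.771% above 75. Members were thus less frequent among the strongest peaks, although the median read pile at the summit was similar, at 27.8 reads in members and 29 in the others. Members were spread over the genome, with shares from 0.675% on chromosome 21 (5 members) to 1.39% on chromosome 4 (42 members). The median distance to the nearest other member was 1298 kb, and 47 members had another within 100 kb.

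The gap between the nearest WX-02-23 and DMSO summits had a median of 82 bp and reached 1239 bp. It was 50 to 99 bp in 367 members, 100 to under 200 bp in 95 and 200 bp or more in 211. Of those 211, 159 were multi-peak members and 52 had a single peak in each library. Many members sat close to the threshold, since 200 had a gap of 50 to 59 bp. There were 29 members at exactly 50 bp and 26 shared regions just outside at 49 bp. At chr20:32142705-32143295, a member with a gap of 50 bp, DMSO summits lay 312, 292 and 311 bp from the start of the region and WX-02-23 summits 242, 170 and 178 bp. At chrX:103410489-103411722, just outside with 49 bp, DMSO summits lay at 519, 465 and 490 bp and WX-02-23 summits at 621, 568 and 646 bp. These neighbours on either side of the threshold show separations of like size.

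The centre of the peak that held the summit shifted the same way as the summit in 81.3% of members, against 59.7% of the other shared regions, by a median of 34.2 bp against 5.83 bp. These values come from the 6 libraries that chose the members and are a description. The share was 74.4% in single-peak members, with a median of 15.2 bp, and 90.3% in multi-peak members, with 156 bp. In 148 members the 6 peaks that held the summits had no base in common, so that more than 1 peak held the summits. Of these, 143 were multi-peak members and 5 had a single peak in each library. In the other 525 the 6 peaks shared at least 1 base.

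The same rule was next applied to the other treatments of parental cells, each against the same 3 DMSO libraries. It called 673 regions for WX-02-23 (1.06%), 501 of 63846 for WX-02-43 (0.785%), 508 of 63566 for PladB at 10 nM (0.799%) and 546 of 58910 for PladB at 100 nM (0.927%). Separations of 50 bp were thus counted under every treatment, those without a stereoprobe included. The counts fell with distance, and from 50 to 200 bp they fell by a larger factor for the other treatments than for WX-02-23. Single steps did not all keep that order, as for PladB at 100 nM between 200 and 300 bp. With a gap of at least 200 bp there were 211 regions for WX-02-23, 92 for WX-02-43, 128 for PladB at 10 nM and 148 for PladB at 100 nM. With at least 300 bp the counts were 108, 45, 47 and 80. Multi-peak regions, at 50 bp, numbered 290 for WX-02-23 and 189, 190 and 233 for the others, while single-peak regions numbered 383 against 312, 318 and 313. These comparisons share their DMSO libraries and are given side by side. No test was made of the difference between them.

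**Figure D1:**
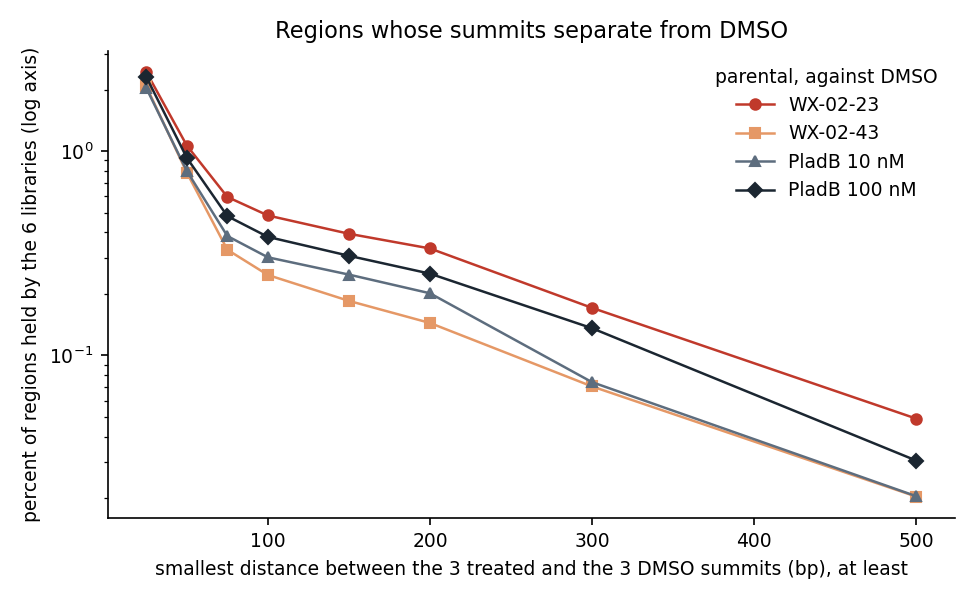
Percent of the regions held by the 6 libraries of each comparison (vertical, log axis) in which all 3 treated summits lay at least the distance on the horizontal axis (bp) to one side of all 3 DMSO summits, for 4 treatments of parental cells. WX-02-23 runs above the others from 25 bp to 500 bp, and at 200 bp it stands at 0.334% against 0.144% for WX-02-43.

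WX-02-23 and WX-02-43, both given at 20 µM for 3 h, can also be set directly against each other without the DMSO libraries. Their summits separated by at least 50 bp in 657 of 62799 regions (1.05%), and by at least 200 bp in 188 (0.299%). These counts were close to the 673 and 211 for WX-02-23 against DMSO, and above the 501 and 92 for WX-02-43 against DMSO. In members held by all 3 WX-02-43 libraries, 77 of 637 also passed the rule for WX-02-43 against DMSO, all in the direction of WX-02-23. The DMSO summits that chose the members also enter that count, so nothing is read from it. With 3 libraries against 3, an exact permutation test of a single value cannot go below 0.10, and none was run.

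A more direct view comes from the side of the summit in libraries that the rule did not use. For each member the midpoint between the mean DMSO summit and the mean WX-02-23 summit of the parental cells was taken, and each library was scored by the share of members whose summit lay past it, on the WX-02-23 side. In other shared regions this share was 49.9% to 50.2% as a group mean in every group outside the rule except the engineered cells given WX-02-23 (51.2% with WT-FOXA1 and 50.6% with C258A-FOXA1). In members it was 42.1% ± 2.1 (SD, n = 3) under WX-02-43, with libraries at 43.0%, 43.6% and 39.7%. Under PladB at 10 nM it was 43.3% ± 0.69 (n = 3) and under PladB at 100 nM 46.9% ± 2.1 (n = 3). The remaining parental treatments thus leaned to the DMSO side, but in 39.7% to 48.8% of members a given library had its summit on the WX-02-23 side.

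Among engineered cells the share was higher under WX-02-23 with either form of FOXA1. With WT-FOXA1 the DMSO libraries stood at 45.5% and 41.8% and the WX-02-23 libraries at 55.2% and 53.1%. The groups did not overlap, and the difference was 10.5 points (SE 2.1, n = 2 against 2), against 1.22 points (SE 0.096) in other shared regions. Those regions are not a like background for this share, since their median parental shift was 18.7 bp, against 171 bp in members. With C258A-FOXA1 the DMSO libraries stood at 41.1% and 42.4% and WX-02-23 libraries at 51.9% and 47.2%. These groups did not overlap either, with a difference of 7.82 points (SE 2.4), against 0.516 (SE 0.063) in other shared regions. The forms of FOXA1 differed by less than the combined error of these values, and that difference was not tested. The values rest in part on how the members were chosen: chosen without parental DMSO replicate 3, a larger set of members gave 6.53 points with WT-FOXA1 and 3.13 with C258A-FOXA1.

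PladB and Dox moved the share by less. PladB minus DMSO was -1.25 points (SE 2.3) with WT-FOXA1 and 2.84 points (SE 2.8) with C258A-FOXA1, and DMSO with Dox minus DMSO without it was 2.28 points (SE 2.0). Each was near its own SE or below it. Fewer members kept a peak when WT-FOXA1 cells received WX-02-23, 69.9% ± 3.5 (SD, n = 2) against 85.9% ± 0.84 under DMSO, and other shared regions showed 72.4% against 86.2%. With C258A-FOXA1 the shares with a peak were 83.1% ± 6.2 and 82.6% ± 0.21. The part that this loss of peaks has in the summit shares was not tested.

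**Figure D2:**
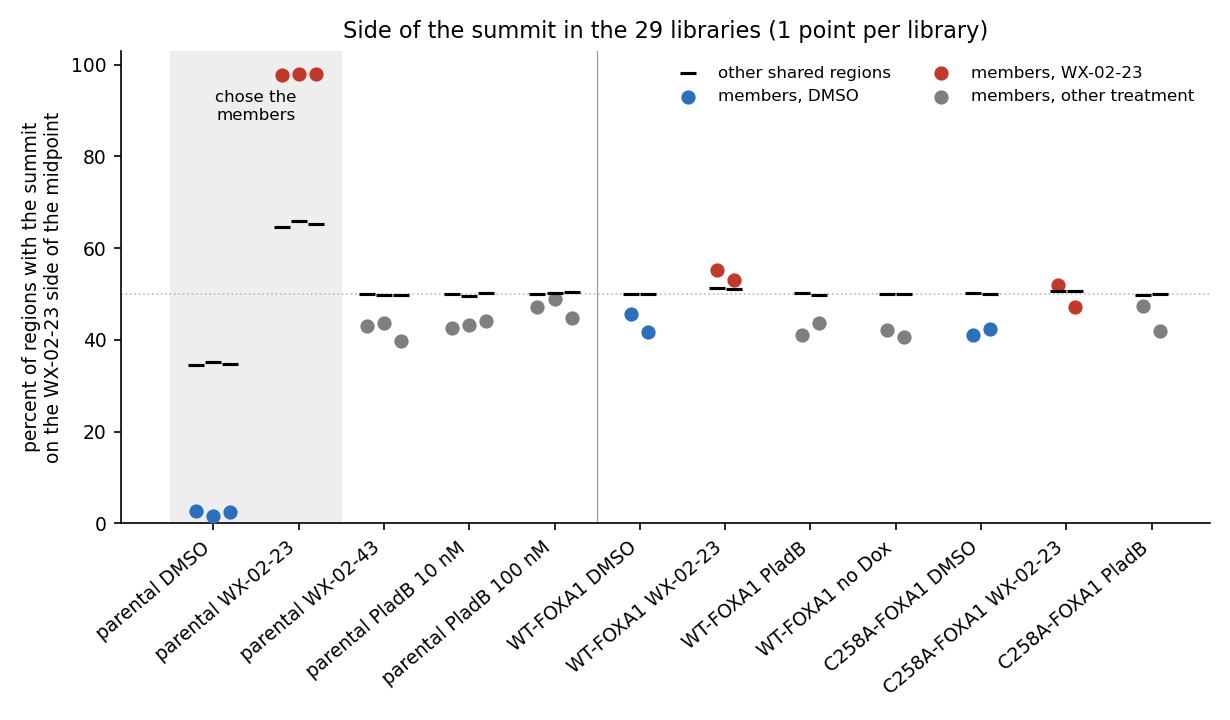
Percent of regions whose summit lay on the WX-02-23 side of the midpoint between the mean parental DMSO and WX-02-23 summits (vertical), 1 point per library for members and 1 dash per library for other shared regions, by group. Outside the grey area, whose libraries chose the members, the 4 libraries of engineered cells given WX-02-23 lie at 47.2% to 55.2%, and the highest libraries of other groups are parental PladB at 100 nM (48.8%) and C258A-FOXA1 PladB (47.3%).

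By the side of the summit, members with a gap of 100 bp or more differed more between WX-02-23 and DMSO in the engineered lines than members nearer the threshold. WX-02-23 minus DMSO was, with WT-FOXA1, 6.61 points (SE 3.5) for members with a gap of 50 to 99 bp, 14.4 (SE 4.1) for 100 to under 200 bp and 15.4 (SE 2.1) for 200 bp or more. With C258A-FOXA1 the values were 1.85 (SE 3.1), 14.8 (SE 8.9) and 14.9 (SE 1.5). Members of 200 bp or more stood at 43.9% and 39.7% under DMSO and 57.2% and 57.1% under WX-02-23 with WT-FOXA1, and at 34.1% and 35.7% against 48.6% and 51.1% with C258A-FOXA1. None of these pairs of groups overlapped. For the same members PladB in C258A-FOXA1 cells gave 47.4% and 41.5%, which is 9.58 points (SE 3.0) above DMSO, and DMSO with Dox was 6.18 points (SE 2.2) above DMSO without Dox in WT-FOXA1 cells. Differences beyond 2 SE were thus also seen there without WX-02-23. With 2 libraries against 2 the SE is itself imprecise, so 2 SE is a description here and not a test. Members near the threshold, at 50 to 99 bp, differed by less than 2 SE with either form.

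**Figure D3:**
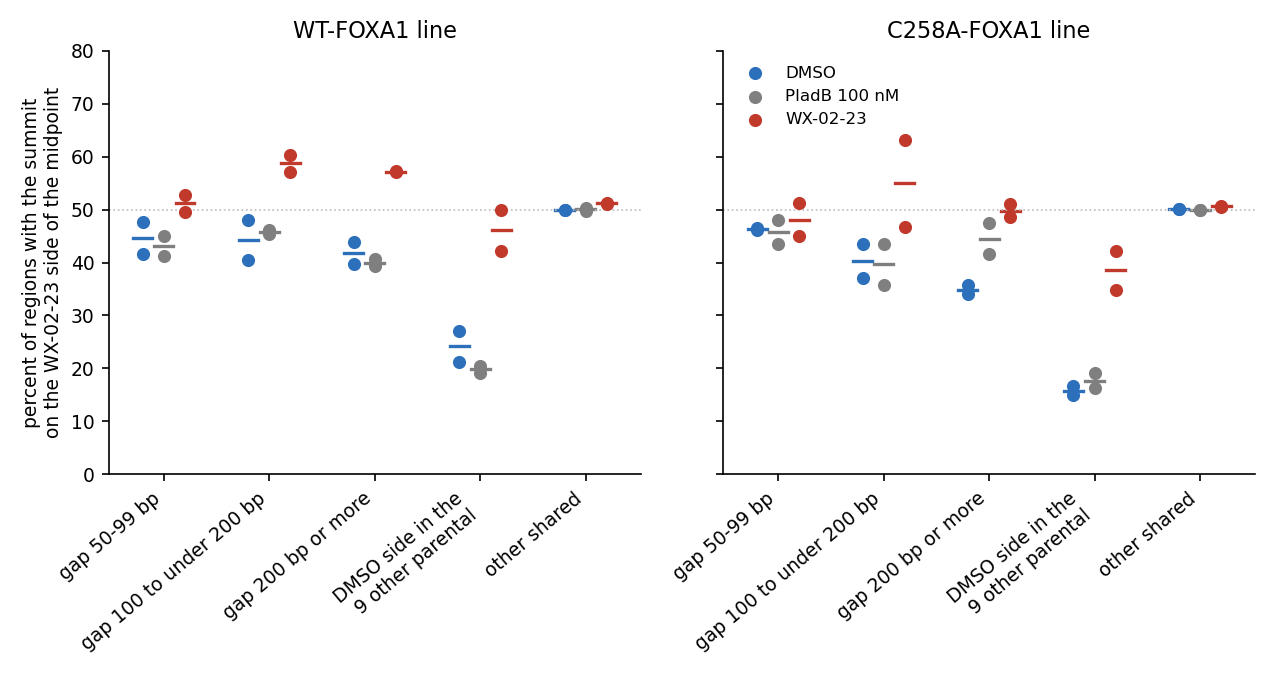
Percent of regions with the summit on the WX-02-23 side (vertical) in the DMSO, PladB and WX-02-23 libraries of WT-FOXA1 (left) and C258A-FOXA1 cells (right), 1 point per library with the group mean as a line, for members by gap class, for the 49 members whose 9 other parental summits all lay on the DMSO side, and for other shared regions. In members with a gap of 200 bp or more the WX-02-23 means are 57.1% and 49.8% and the DMSO means 41.8% and 34.9%.

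Measured in bp, the move was small for the median member. In the 406 members held by the 4 DMSO and WX-02-23 libraries with WT-FOXA1, the mean summit moved by a median of 9.75 bp in the parental direction, with 239 moving that way and 167 the opposite way. With C258A-FOXA1 the median was 12 bp over 484 members, with 285 and 196. Leaving out any 1 library, parental ones included, which also changes the members, gave 3 to 8 bp with C258A-FOXA1, all below 12 bp, and 4.5 to 12 bp with WT-FOXA1. Under PladB with WT-FOXA1 the median was 0 bp over 496 members, with 246 each way. Under PladB with C258A-FOXA1 it was 6.75 bp over 464 members, with 261 in the parental direction and 200 in the opposite one. The median over other shared regions under WX-02-23 was 0.50 bp with WT-FOXA1 and 0 bp with C258A-FOXA1. A minority of members carried the long moves. Moves of at least 100 bp went in the parental direction in 70 members (17.2%) and the opposite way in 33 (8.13%) with WT-FOXA1, and in 92 (19.0%) and 35 (7.23%) with C258A-FOXA1. PladB gave 67 (14.4%) and 34 (7.33%) with C258A-FOXA1 and 44 (8.87%) and 55 (11.1%) with WT-FOXA1, so in C258A-FOXA1 cells long moves also leaned to the parental direction without the stereoprobe. Among other shared regions under WX-02-23 those shares were 4.08% and 3.46%, and 4.04% and 3.35%.

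The rule itself, asked of the engineered lines with 2 libraries against 2, is looser than with 3 against 3. It called 5.64% of all 47191 regions held by the WT-FOXA1 libraries and 5.26% of 57860 held by the C258A-FOXA1 libraries. With WT-FOXA1, 32 of the 406 members (7.88%) passed in the parental direction, where 2.87% of shared regions did, and 12 (2.96%) passed in the opposite direction, against 2.30%. With C258A-FOXA1, 31 of 484 members (6.4%) passed in the parental direction against 2.47% of shared regions, and 19 (3.93%) in the opposite one against 2.28%. Most members therefore did not separate again by the rule in engineered cells. With WT-FOXA1 the share passing in the parental direction did not rise with the parental gap. It was 7.91%, 7.41% and 8.03% for gaps of 50 to 99 bp, 100 to under 200 bp and 200 bp or more, with 4.19%, 0% and 2.19% the opposite way. With C258A-FOXA1 it was 5.00%, 3.45% and 9.64%, with 5.77%, 0% and 2.41% the opposite way. PladB against DMSO called 4.78% of all regions held with WT-FOXA1 and 4.89% with C258A-FOXA1, and Dox against no Dox 4.83%. Of members, PladB gave 19 in the parental and 20 in the opposite direction of 496 with WT-FOXA1 (3.83% and 4.03%, against 2.20% and 2.12% of shared regions). With C258A-FOXA1 it gave 22 and 10 of 464 (4.74% and 2.16%, against 2.17% and 2.23%). Dox gave 32 and 20 of 479 (6.68% and 4.18%, against 2.40% and 2.37%). Members thus passed more often than shared regions in the parental direction also where no stereoprobe was given, and in the opposite direction in 4 of the 5 comparisons.

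Of the 389 members held by all 8 DMSO and WX-02-23 libraries of the engineered lines, 1 passed in the parental direction in both lines (0.257%, against 0.171% of 38507 shared regions). In 24 the WT-FOXA1 summits separated in the parental direction while the C258A-FOXA1 summits overlapped. In 12 it was the other way round. The share of all shared regions in these classes is not given here, so the 24 and 12 are not read as a result about the members. A call in a single line does not show that the lines differ, and the fit below tests that difference per region.

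In the 148 members whose summit peaks share no base, the peaks over the parental DMSO summit and over the parental WX-02-23 summit can be followed as a pair of sites. In the 6 libraries that chose them both sites mostly had a peak. The DMSO site had one in 94.8% ± 1.6 (SD, n = 3) of these members under DMSO and in 75.7% ± 4.1 under WX-02-23. The WX-02-23 site had one in 76.8% ± 3.2 under DMSO and in 94.1% ± 1.4 under WX-02-23. Both sites lay under a peak in 102 to 114 of the 148 members in each of these 6 libraries, so a site without any peak was the less frequent case. That count includes members in which 1 peak spanned both sites. Separate peaks of unequal −log10 p lay over the sites in 57 to 76 of the 148. WX-02-43 libraries had a peak over the DMSO site in 86.7% ± 5.5 and over the WX-02-23 site in 81.8% ± 6.5.

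In engineered cells the WX-02-23 site had a peak less often than the DMSO site, as a group mean, in every group not given WX-02-23. With WT-FOXA1 the DMSO site had a peak in 60.1% and 60.8% of the 148 members under DMSO and in 38.5% and 30.4% under WX-02-23. The WX-02-23 site had one in 52.7% and 50.7% under DMSO and in 47.3% and 40.5% under WX-02-23. Both sites were called less often under WX-02-23, the DMSO site by more. With C258A-FOXA1 the DMSO site went from 64.9% and 58.1% to 53.4% and 60.1%, which overlap, and the WX-02-23 site from 48.0% and 51.4% to 48.6% and 64.9%, which overlap too. Where a library had separate peaks over both sites, the one over the WX-02-23 site was the higher in 34.8% ± 0.77 (n = 2) of cases under DMSO and 55.3% ± 10 under WX-02-23 with WT-FOXA1. For C258A-FOXA1 cells it was 30.6% ± 1.4 and 45.8% ± 1.6. The WX-02-23 libraries lay above the DMSO libraries with either form, but on few regions. With WT-FOXA1 it was 20 of 32 and 13 of 27 under WX-02-23, against 13 of 38 and 12 of 34 under DMSO. With C258A-FOXA1 it was 17 of 38 and 23 of 49, against 13 of 44 and 12 of 38. PladB libraries also lay above the DMSO libraries with WT-FOXA1, at 42.4% and 40.5% against 34.2% and 35.3% under DMSO. With C258A-FOXA1 they stood at 42.4% and 31.0%, against 29.5% and 31.6% under DMSO.

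**Figure D4:**
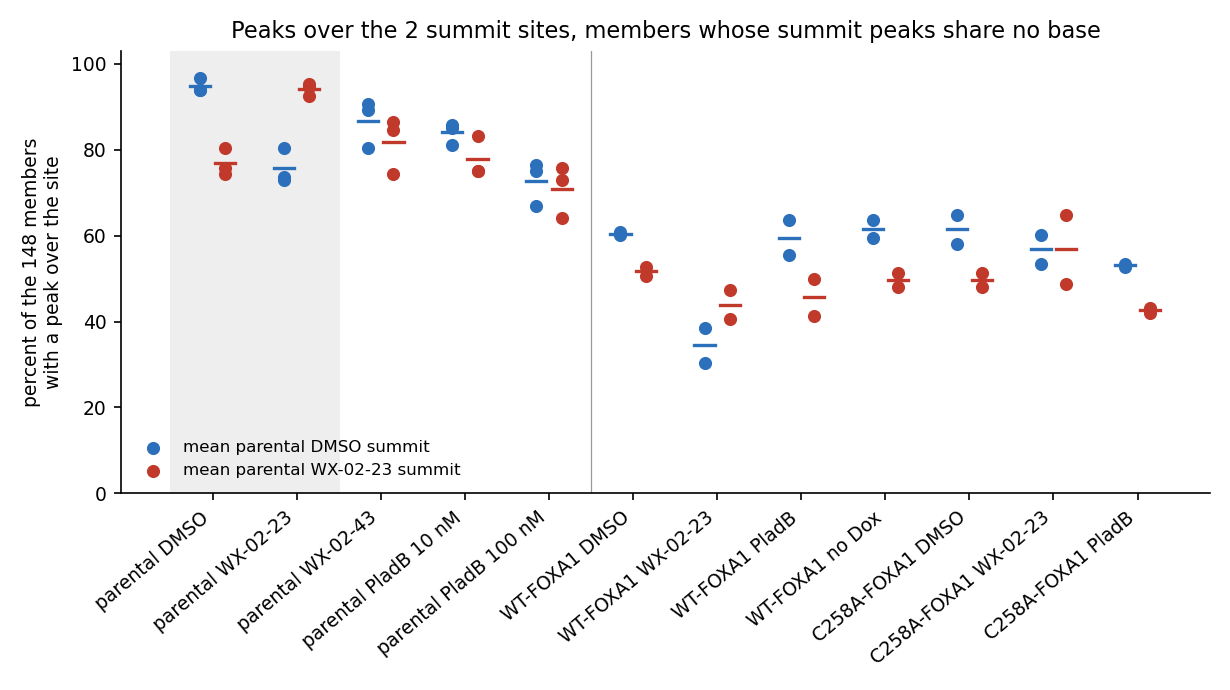
Percent of the 148 members whose summit peaks share no base that had a peak over the mean parental DMSO summit (blue) and over the mean parental WX-02-23 summit (red), 1 point per library with the group mean as a line, in 12 groups. The libraries in the grey area chose the members. With WT-FOXA1 under WX-02-23 the DMSO site falls to 30.4% and 38.5% while the WX-02-23 site stands at 40.5% and 47.3%.

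Members also differed in which parental group stood apart. Among the 570 members held by all 15 parental libraries, the 9 libraries given WX-02-43 or PladB all lay on the DMSO side of the middle of the gap in 49 (8.60%), so that WX-02-23 stood alone there. All 9 lay on the WX-02-23 side in 16 (2.81%), so that DMSO stood alone. In the other 505 (88.6%) the 9 libraries fell on both sides. This split was made after the values had been seen and carries no test. The 49 had a median width of 925 bp and a median gap of 199 bp, and the 16 had 888.5 bp and 75 bp.

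In the 49 members where WX-02-23 stood alone, the engineered cells were nearer to the DMSO position without the compound. With WT-FOXA1, 27.1% and 21.3% of their summits lay on the WX-02-23 side under DMSO and 42.1% and 50% under WX-02-23, 21.9 points higher (SE 4.9). With C258A-FOXA1 it was 14.9% and 16.7% under DMSO and 42.2% and 34.8% under WX-02-23, 22.7 points higher (SE 3.8). PladB minus DMSO was -4.38 points (SE 3.0) with WT-FOXA1 and 1.93 points (SE 1.7) with C258A-FOXA1, and Dox minus no Dox was 8.01 points (SE 4.5). In the 16 members where DMSO stood alone, 62.5% and 75% of summits lay on the WX-02-23 side already under DMSO with WT-FOXA1, which is 10 and 12 of the 16. With C258A-FOXA1 it was 9 of the 15 and 10 of the 14 that had a peak. The differences under WX-02-23 were -3.37 points (SE 7.3) and 2.14 points (SE 12).

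Single members show these kinds plainly. The widest move of a single-peak member was at chr12:14922835-14924270, with a gap of 739 bp. DMSO summits lay at 451, 412 and 441 bp from the region start and WX-02-23 summits at 1190, 1239 and 1233 bp. WX-02-43 summits lay at 412, 1191 and 431 bp, and PladB at 10 nM gave 1186, 412 and 1186 bp, so other libraries used both positions. All 8 WT-FOXA1 libraries lay between 1168 and 1298 bp, at the WX-02-23 position, whatever the treatment. A like case was chr10:132098769-132100267, with a gap of 484 bp, where DMSO summits at 657, 648 and 664 bp moved to 1157, 1148 and 1148 bp. There all 14 engineered libraries lay between 1130 and 1257 bp.

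At chr12:52519406-52521062, a single-peak member with a gap of 435 bp, WX-02-23 stood alone. DMSO summits lay at 974, 982 and 1011 bp and WX-02-23 summits at 405, 539 and 464 bp, while the 9 other parental libraries lay between 967 and 1041 bp. With WT-FOXA1, WX-02-23 gave 326 and 1135 bp against 983 and 1032 bp under DMSO. With C258A-FOXA1 it gave 391 and 1051 bp against 1022 and 1078 bp. With each form 1 of the 2 WX-02-23 libraries was at the low position and no other engineered library was. At chr4:140940421-140941546, with a gap of 439 bp, parental WX-02-23 summits lay at 155, 458 and 273 bp against 897, 897 and 907 bp under DMSO. Of the 23 other libraries only 1, from WT-FOXA1 cells given WX-02-23 at 202 bp, was below 884 bp.

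The longest gap, 1239 bp, was at chr12:10874494-10876319, a multi-peak member. DMSO summits lay at 1510, 1503 and 1509 bp and WX-02-23 summits at 264, 262 and 246 bp. PladB at 10 nM kept 1510 bp in all 3 libraries, PladB at 100 nM gave 1541, 757 and 271 bp, and WX-02-43 gave 255, 1521 and 1502 bp. In WT-FOXA1 cells WX-02-23 left the summits at 1510 and 1451 bp, near the 1463 and 1500 bp of DMSO. The next were chr19:54692980-54695193 (gap 1145 bp), chr20:277772-279526 (1112 bp) and chr18:74533438-74535318 (1067 bp). At chr20:277772-279526 DMSO summits lay at 411, 410 and 407 bp, WX-02-23 summits at 1564, 1523 and 1574 bp and the 6 PladB summits between 1516 and 1574 bp. All engineered libraries there lay between 241 and 410 bp. At chr19:54692980-54695193 the WX-02-43 summits, at 1760, 1701 and 1753 bp, were as far from DMSO (541, 540 and 557 bp) as those of WX-02-23 (1736, 1705 and 1702 bp).

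The strongest members by the authors' −log10 p, named here, moved by short distances. Over all members strength did not go with short moves. The median percentile was 57.0 for gaps of 50 to 99 bp, 56.2 for 100 to under 200 bp and 65.0 for 200 bp or more. At chr12:56367156-56368373 DMSO summits lay at 638, 637 and 643 bp and WX-02-23 summits at 578, 585 and 572 bp. Of the 23 other libraries, 1 WX-02-43 library at 637 bp lay with DMSO and the others lay between 513 and 584 bp. At chr2:98261777-98262892 DMSO gave 564, 568 and 571 bp and WX-02-23 680, 682 and 681 bp. Most other libraries there lay between 616 and 687 bp, DMSO with WT-FOXA1 at 680 and 628 bp among them, and 1 C258A-FOXA1 library given WX-02-23 lay at 568 bp. In both regions the parental DMSO libraries stood apart from nearly all others. At chr16:53536478-53537922 (gap 54 bp) and chr16:58663228-58664601 (gap 54 bp) other libraries lay at both positions.

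For a test in libraries outside the rule, the summit position was fitted with limma across all 43695 regions held by the 8 DMSO and WX-02-23 libraries of the engineered lines, with Benjamini-Hochberg adjustment over all of them. For WT-FOXA1, 131 regions (0.300%) passed an adjusted p of 0.05, among them 4 of the 389 members. Of these, 3 moved in the parental direction, where 0.195% of shared regions did, and 1 in the opposite direction. For C258A-FOXA1, 80 regions passed (0.183%), and 0 of the members did by limma (0.106% of shared regions passed in the parental direction). At an unadjusted p under 0.05, 15 members passed there in the parental direction (3.86%, against 2.46% of shared regions) and 10 in the opposite one (2.57%, against 2.37%). That order turned round in other fits, with 10 and 11 over all 14 engineered libraries, 13 and 16 without WT-FOXA1 WX-02-23 replicate 1, and 14 and 18 without replicate 2 of that group. The count of 0 did not hold when 1 library was left out, with 1 to 11 members past the adjusted threshold and 0 to 5 of them in the parental direction. The most, 11, came without C258A-FOXA1 WX-02-23 replicate 2, and 6 of those moved in the opposite direction. For WT-FOXA1 the same fits gave 4 to 11 members, 3 to 8 of them in the parental direction. The unadjusted counts for WT-FOXA1 were 22 (5.66%, against 2.94%) and 10 (2.57%, against 2.59%). The difference between the lines passed in 121 regions (0.277%), 4 of them members, 2 with the larger parental-direction move with WT-FOXA1 (0.166% of shared regions) and 2 with the reverse. At an unadjusted p under 0.05 these were 17 (4.37%, against 2.72%) and 8 (2.06%, against 2.44%), but 21 and 22 once replicate 1 of C258A-FOXA1 under WX-02-23 was left out.

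The clearest of these members was chr20:304810-306305, a region of 1496 bp with more than 1 peak. Parental DMSO summits lay at 398, 398 and 393 bp and parental WX-02-23 summits at 1218, 1262 and 1272 bp. With WT-FOXA1, DMSO gave 388 and 387 bp and WX-02-23 1229 and 1246 bp. With C258A-FOXA1, DMSO gave 388 and 368 bp and WX-02-23 386 and 395 bp. The move was thus the same in parental and WT-FOXA1 cells and was not seen with C258A-FOXA1. By limma it was 850 bp (SE 14.6, adjusted p 4.76e-05) with WT-FOXA1 and 12.5 bp (SE 14.6, adjusted p 0.990) with C258A-FOXA1, and the difference between the lines was 837.5 bp (SE 20.6, adjusted p 0.000367). The fit assumes a normal spread around each group mean, while summits here lay at separate positions. Its SE measures the spread near a position and not how often a library switches, so these p-values do not give the chance of a switch. WX-02-43 left the summit at 339, 398 and 383 bp. PladB did not always do so: with WT-FOXA1 it gave 1216 and 1228 bp, and 1 of the 3 parental libraries at 100 nM gave 1300 bp, while C258A-FOXA1 cells given PladB stayed at 393 and 353 bp. The second position in this region was therefore also reached without a stereoprobe.

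At chr1:85338789-85340813 the WT-FOXA1 line moved from 222 and 294 bp under DMSO to 1278 and 1277 bp under WX-02-23, a shift of 1019.5 bp by limma (SE 47.7, adjusted p 0.00193). The C258A-FOXA1 line gave 355 and 218 bp under WX-02-23 and 219 and 230 bp under DMSO, and the difference between the lines was 957.5 bp (SE 67.4, adjusted p 0.00925). Parental DMSO libraries were spread there, at 1082, 683 and 289 bp, against 1224, 1161 and 1176 bp under WX-02-23. At chr3:14270129-14270865, the 1 member that separated in both lines, DMSO and WX-02-23 summits lay at 412 and 420 against 244 and 243 bp with WT-FOXA1 and at 509 and 500 against 391 and 407 bp with C258A-FOXA1. Parental summits were at 584, 584 and 467 bp against 130, 156 and 250 bp. By limma the shift, signed by the parental direction, was 172.5 bp (SE 15.8, adjusted p 0.0211) and 105.5 bp (SE 15.8, adjusted p 0.219), and the difference between the lines had an adjusted p of 0.819. The first of these passed in 5 of 13 alternative fits, and its limma adjusted p ranged from 0.0179 to 0.949 over them. It was 0.949 in the fit over all 14 engineered libraries, 0.0885 with the replicate block, and 0.0633 to 0.0935 without any one of the 4 WT-FOXA1 libraries or either C258A-FOXA1 DMSO library.

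A move against the parental direction also passed. At chr12:104613097-104614478, a single-peak member with a gap of 53 bp, parental DMSO summits lay at 772, 770 and 770 bp and parental WX-02-23 summits at 826, 825 and 827 bp. WX-02-23 with WT-FOXA1 gave 281 and 222 bp, against 821 and 826 bp under DMSO. That shift was -572 bp (SE 27.4, limma adjusted p 0.00212), opposite to the parental direction, and the C258A-FOXA1 summits stayed at 829 and 772 bp. At chr17:4889627-4891131 neither line's shift passed, at -458 bp (limma adjusted p 0.216) with WT-FOXA1 and 525 bp (limma adjusted p 0.179) with C258A-FOXA1. The difference between the lines there was -983 bp (SE 104, limma adjusted p 0.0443), with summits at 764 and 761 bp under DMSO and 1339 and 1102 bp under WX-02-23 with WT-FOXA1. With C258A-FOXA1 they were at 1302 and 1330 bp under DMSO and 814 and 768 bp under WX-02-23.

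Other members named because the rule was met with WT-FOXA1 while C258A-FOXA1 summits overlapped were chr9:37079317-37080456, chr20:32142705-32143295 and chr11:45000109-45001896. At chr20:32142705-32143295 WX-02-23 gave 185 and 186 bp with WT-FOXA1, against 298 and 299 bp under DMSO, and 312 and 298 bp with C258A-FOXA1. At chr11:45000109-45001896, with a parental gap of 874 bp, WX-02-23 gave 1563 and 1637 bp with WT-FOXA1 against 611 and 644 bp under DMSO, and 1527 and 1603 bp with C258A-FOXA1. There 1 C258A-FOXA1 DMSO library was already at 1634 bp and the other at 625 bp, so the overlap there came from a DMSO library and not from a summit that stayed. The members named for the reverse were chr17:61818616-61819542, chr7:87004562-87005823, chr4:89025992-89026629 and chr1:82314380-82314983. At chr4:89025992-89026629 C258A-FOXA1 cells moved from 231 and 200 bp to 294 and 303 bp, close to the parental move from 202, 189 and 197 bp to 305, 306 and 307 bp, while WT-FOXA1 summits under WX-02-23 lay at 188 and 293 bp.

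**Figure D5:**
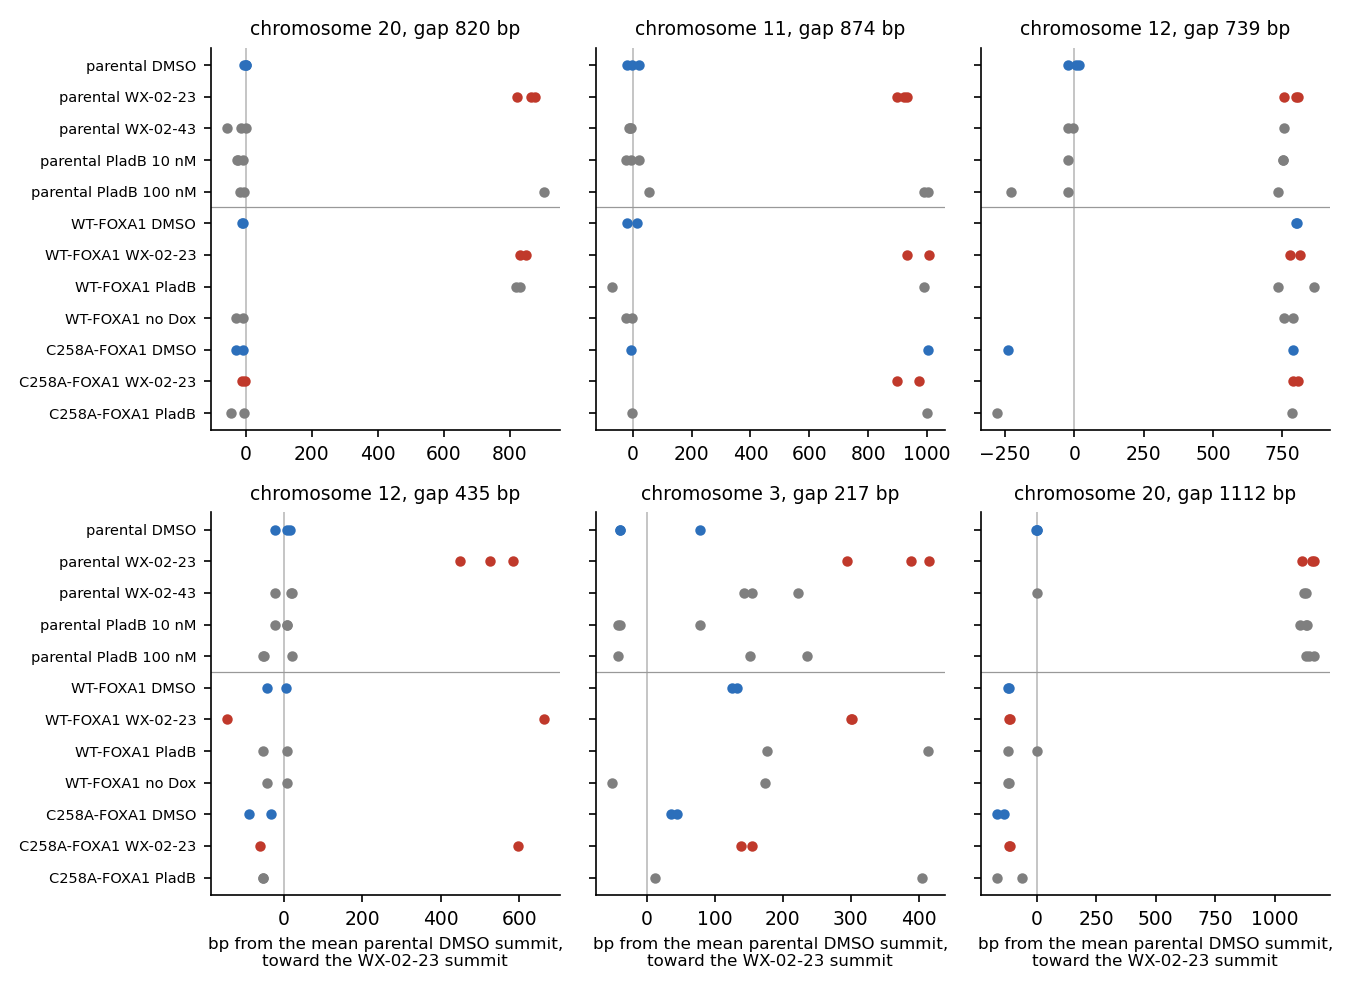
Summit of each library in 6 named members, as distance in bp from the mean parental DMSO summit, positive toward the parental WX-02-23 summit (horizontal), by group (rows; red WX-02-23, blue DMSO, grey other treatments), with the parental groups above the line. The first panel (gap 820 bp) shows WT-FOXA1 cells but not C258A-FOXA1 cells at the WX-02-23 position, and the last (gap 1112 bp) shows PladB at that position in parental cells.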

How the data were processed

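Per the labels' protocols, a commercial ATAC-seq kit was used. Per the submitters' processing notes, Bowtie2 and MACS2 were used with build hg19. Their versions and options, and whether reads were shifted for the transposase, are details not given in the sources used here. With no pooling, the authors deposited 1 peak list per library, and each peak has a score, a fold enrichment (a ratio), a p-value and a q-value as −log10, and a summit offset from its start, per the column order of the deposited lists. Fold and −log10 values are the authors' own and only ranked peaks within a list. No read totals were used. Depth limits how well a summit is placed, and it was described by the background in reads per base, read from the fold steps. At least 98.5% of peaks per list gave whole reads (tolerance 0.01 in −log10 p).

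Peaks of all 29 lists except chrM were merged where they overlapped or touched, with Python 3.11.15, numpy 2.4.6, pandas 2.3.3 and matplotlib 3.10.9. The summit of a region in a library was that of its peak with the highest −log10 p. Errors of differences in shares are standard errors between libraries. Summit positions were fitted with limma 3.58.1 in R 4.3.3 (group means, robust variance, trend on log2 region width) over 8 engineered libraries. The rule and the fit were run on simulated data with a normal spread around a single position per group. That simulation cannot show how they behave where summits switch between separate positions. Members and lists were chosen with earlier results of these data known. The named regions were 4 each of the longest gaps among single-peak and among multi-peak members held by all 29 libraries, the strongest members, up to 4 that separated in both lines, in the WT-FOXA1 line or in the C258A-FOXA1 line, the nearest to the threshold, and up to 4 with the smallest adjusted p per limma contrast. The planned comparison of sequence at the summits was not run, since no hg19 sequence was used here. Alternatives were other gaps, a stricter q, ranking by fold, overlap of the summit peaks, pairing, each library left out, and other limma settings.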

Additional observations from a re-analysis of the deposited data

Results flagged for a closer look

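In 4 members the shift of the summit under WX-02-23 differed between the WT-FOXA1 line and the C258A-FOXA1 line by the limma test of that difference (adjusted over 43695 regions). Values are WT-FOXA1 minus C258A-FOXA1, signed by the direction of the parental move. It was 837.5 bp at chr20:304810-306305 (adjusted p 0.000367), past the threshold in 14 of 14 alternative fits. It was 957.5 bp at chr1:85338789-85340813 (adjusted p 0.00925), past it in 12 of 14, with adjusted p from 0.000230 to 0.0513 (0.0513 without C258A-FOXA1 DMSO replicate 2). It was -546.5 bp at chr12:104613097-104614478 (adjusted p 0.00929), past it in 10 of 14 with a range of 0.000190 to 0.0554, and missed without any one of the 4 DMSO libraries. At chr17:4889627-4891131 it was -983 bp (adjusted p 0.0443), past it in 6 of 14, with a range of 0.00480 to 0.169, and missed without any one of the DMSO libraries or of the C258A-FOXA1 libraries given WX-02-23. In the positive pair the move along the parental direction was the larger one with WT-FOXA1, and in the negative pair it was not. Each rests on 2 libraries per group, and the fit does not model a summit that switches between separate positions.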

How the results depend on the processing

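The order of the limma counts of members by direction, adjusted or not, changed under alternatives for C258A-FOXA1 and for the difference between the lines. No other result recomputed here changed direction under an alternative. Counts by the rule were compared in size only. Fewer libraries or a shorter gap loosen the rule by construction. Counts of members by the rule in this section have no share of shared regions at the same setting beside them. They are not read as a result about the members. At 25 bp it called, for WX-02-23, WX-02-43 and PladB at 10 and 100 nM, 1542, 1324, 1293 and 1359 regions, and 1499 between the stereoprobes. In the engineered lines 25 bp gave 5458 (WT-FOXA1) and 6417 (C258A-FOXA1) for WX-02-23, 5890 and 6054 for PladB and 5258 for Dox, with 93 and 83 members in the parental direction. In the C258A-FOXA1 line the summit side then differed by 3.84 points and the median shift was 5 bp. At 100 bp the counts were 306, 158, 192, 224 and 297 in parental cells and 745, 847, 687, 709 and 684 in the engineered comparisons, with 12 and 10 members. The side differed by 15.1 points with WT-FOXA1 and 14.9 with C258A-FOXA1, and the median shift of the latter was 24.5 bp. Members whose summit peaks share a base gave 20 and 18 in the parental direction.

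Among single-peak members the C258A-FOXA1 side difference was 3.61 points (SE 5.0), and among multi-peak members 13.2 points (SE 2.1) with a shift of 23 bp. The single-peak value is imprecise, and the classes were not tested against each other. limma called 47, 27 and 49 regions (WT-FOXA1, C258A-FOXA1, difference) over all 14 engineered libraries, and 21, 20 and 11 where each library had 1 peak. Replicates with the same number did not deviate together (correlations of deviations from -0.000955 to 0.00171), so they share only a number. With the replicate block, pairs alone had to separate, which gave 1276, 1106, 1052, 1122 and 1263 regions in parental cells, 4592, 4122 and 4189 for WX-02-23 with C258A-FOXA1 and PladB in both lines, and 68 and 69 members in the parental direction, while limma with the block called 49 regions for C258A-FOXA1 and 67 for the difference.

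Leaving out 1 library gave, in that order, 1589 to 1671, 1303 to 1459, 1330 to 1452, 1318 to 1560 and 1507 to 1641 regions. In engineered lines it gave 7823 to 10052 (WT-FOXA1) and 9734 to 10959 (C258A-FOXA1) for WX-02-23, 9205 to 10147 and 8836 to 10279 for PladB, and 7888 to 8214 for Dox, with 61 to 86 and 55 to 96 members in the parental direction. The summit side differed by 6.53 to 12.3 and 3.13 to 10.2 points, lowest in both without parental DMSO replicate 3, and the median shift was 4.5 to 12 bp and 3 to 8 bp, the latter wholly below the 12 bp of all libraries. limma called 116 to 342, 95 to 269 and 135 to 255 regions, where the lone library of a group is assumed to vary like the others.

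Groups of 2 cannot support a permutation test. The planned sequence windows were not run.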
